A study of Mus musculus with 10 samples.

Results

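The mitochondrial genome of the mouse was read here through 37 genes, those of 52096 in the deposited table whose GENCODE M21 symbol begins with mt-: 13 mRNAs, 2 ribosomal RNAs (rRNAs) and 22 transfer RNAs (tRNAs). All 37 were present. Values were above 0 for the 13 mRNAs and 2 rRNAs in every library, and 0 for all 22 tRNAs in every library.

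Mitochondria carry their own small circular genome, which encodes core subunits of the respiratory chain and of ATP synthase together with the RNAs needed to translate them. Each strand is transcribed into long precursors that span many genes. In most places tRNA genes lie between the others, and cutting out the tRNAs releases the mRNAs and rRNAs, most of which then receive short poly(A) tails. Hematopoietic stem cells (HSCs) are known to rely little on respiration while quiescent and to raise it when they divide and differentiate.

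RNA was sequenced from HSCs sorted out of mouse bone marrow, defined as LSK (lineage-negative, Sca-1-positive, Kit-positive) cells with CD150 and without CD48, in 5 libraries per group. Both groups carry 1 floxed allele of Nup214, whose product sits on the outer side of nuclear pores and takes part in export of RNA and protein: FL is Nup214fl/+ without Cre, and HET is Nup214fl/+,Tie2-Cre, in which Cre is driven by a promoter active in endothelial and blood lineages. There is no group with Cre but no floxed allele, so loss of 1 Nup214 allele and Cre itself cannot be told apart. The sources used here state neither ages nor whether each library came from its own mouse. The p-values then reflect only how far libraries vary, which may be technical.

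Levels are in FPKM (fragment counts divided by gene length and by library depth), which adjusts for differences in gene length. Whether cDNA synthesis and amplification captured rRNAs and each mRNA equally was not tested, and comparisons between genes hold only so far as it did. The FPKM sums ran from 896054 to 1066190 per library. Relative depth was estimated from the most common low non-zero values of protein-coding genes of similar length, taken as 1 fragment, which was not checked. This step ran from 0.0459 FPKM times kilobases in HET 4 to 0.109 in HET 3. By this step the lowest mitochondrial value rested on about 263 fragments. The cDNA was amplified and no molecular identifier is named, so the number of RNA molecules behind them, and with it the counting error, is not known. Of 8 HSC markers, 6 (Slamf1 and Procr among them) were at 1 FPKM or more in all 10 libraries, but the progenitor granule gene Mpo held 6828 to 11727 FPKM and Cd48, whose protein the sort selected against, 55.8 to 115. The sum of 3 megakaryocyte markers (Pf4, Itga2b, Gp1bb) was 954 to 1731 FPKM in HET and 1758 to 2337 in FL. That gap came from Pf4 (816 to 1508 against 1580 to 2115), while Itga2b and Gp1bb overlapped between the groups. The sum of 4 B cell markers (Ighm, Igkc, Cd79a, Ms4a1) ran from 7933 to 100907 in HET and from 2518 to 10136 in FL, nearly all of it Ighm and Igkc. Of these 4 only Ighm did not overlap between the groups (1968 to 32051 in HET, 630 to 1620 in FL). The sum of 4 neutrophil markers (S100a8, S100a9, Lcn2, Ltf) ran from 177.5 to 646 in HET and from 81.9 to 243 in FL. The sum of 3 macrophage markers (C1qa, Ms4a7, Adgre1) was 50.3 to 83.6 in FL, 103.9 in the library labelled HET 1 and 14.2 to 49.7 in HET 2 to 5. Of these lists no marker was at 0 in all 10 libraries, and their part in the results below was not tested. In RNA from a sorted population, fewer cells of a type and less RNA per cell cannot be told apart.

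The libraries labelled FL 5 and HET 1 stood apart from their groups. On the first principal component of all tested genes, which held 42.6% of the variance, FL 1 to 4 and the library labelled HET 1 lay between -46.4 and -19.6, while HET 2 to 5 and the library labelled FL 5 lay between 28.5 and 41.2. Nup214, the targeted gene, held 65.8, 55.3, 52.2, 43.9 and 30.0 FPKM in FL 1 to 5 and 31.2, 9.74, 17.4, 16.3 and 9.13 in HET 1 to 5. The only crossing between the groups was that of these same libraries. Whether their labels were exchanged was not tested, and the labels were kept as deposited, so every 10-library fold change and SD holds only if they are right. Results are therefore given with all 10 libraries and, beside them, without both. A setting that drops the libraries lying with the other group, or gives them low weight, widens the distance between the groups by construction. Its calls are read only against the share of all genes called.

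The 22 tRNAs cannot be assessed from this table. Their genes are 59 to 75 bases long, and the shortest gene with any value above 0 has 79 bases of exon. By the choice of that bound, all 1172 shorter genes were at 0 in all 10 libraries, and 1150 of them are not mitochondrial tRNAs. Of 1441 genes with 100 to 110 bases of exon, 166 had a value above 0 in any library. Since no gene as short as these had a value, mitochondrial tRNA or not, the zeros say nothing about tRNA abundance. Of the tRNA genes, 14 lie on the strand that carries most mRNAs and 8 on the other. The longest, mt-Tl1 (a leucine tRNA, GRCm38 chrM:2676-2750, plus strand), is shown to make the size concrete, since the whole gene is shorter than the shortest gene with a value:
mt-Tl1: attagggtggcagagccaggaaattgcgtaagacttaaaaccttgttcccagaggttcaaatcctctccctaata

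The levels of the mRNAs and rRNAs differed widely between genes. Over all 10 libraries mt-Atp6, which encodes a membrane subunit of ATP synthase, was highest at a mean of 15859 FPKM, followed by the large rRNA mt-Rnr2 at 13063. The lowest was mt-Nd4l, which encodes a small complex I subunit, at 119.2 FPKM, 133-fold below mt-Atp6. Of the 13 mRNAs, 6 were above 5000 FPKM (mt-Atp6, mt-Atp8, mt-Co1, mt-Cytb, mt-Nd1 and mt-Co3), 3 were between (mt-Co2, mt-Nd4 and mt-Nd5) and 4 were below 500 (mt-Nd3, mt-Nd2, mt-Nd6 and mt-Nd4l). mt-Nd4l was last of the 15 genes in every library and mt-Atp6 was among the first 3 in every library. Adjacent in rank, mt-Atp8 (10557 FPKM) and mt-Co1 (10476) had close means, but their order differed between libraries. mt-Atp8 was above mt-Co1 in FL 1 to 4 and the library labelled HET 1, and below it in the others. The means of mt-Nd3 (375) and mt-Nd2 (365) were also close, with mt-Nd3 below mt-Nd2 in FL 1 to 4 and above it in the others.

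**Figure D1:**
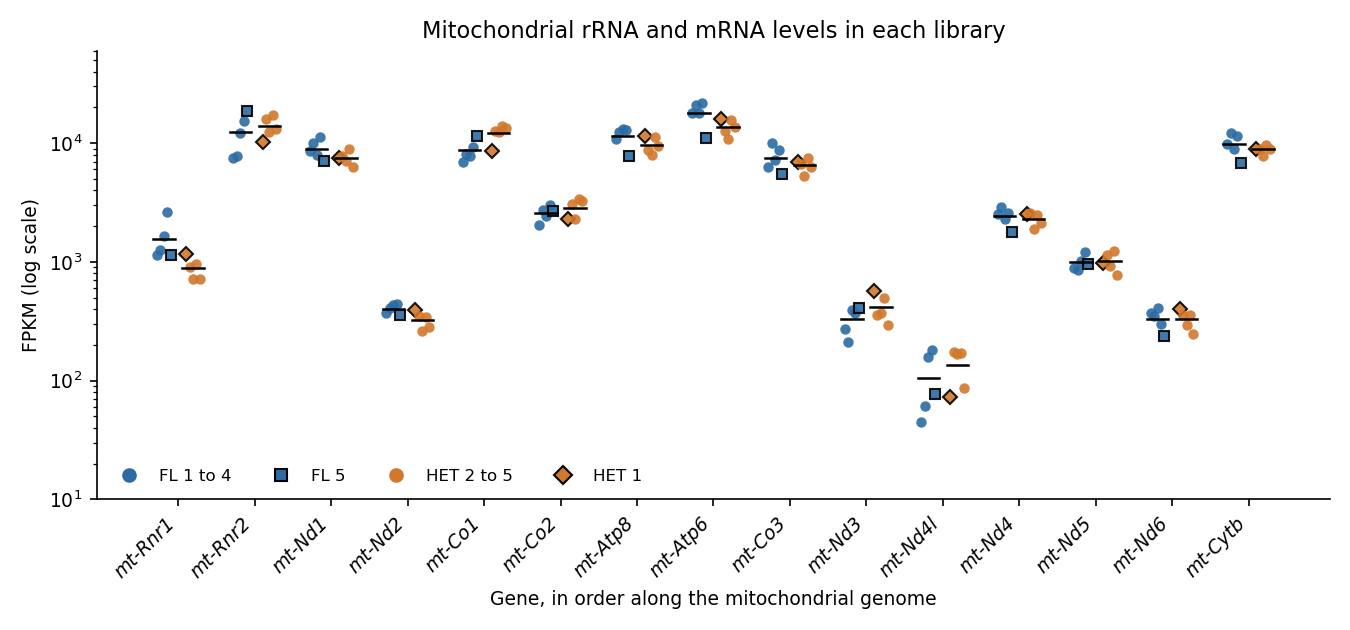
FPKM on a log axis of the 2 rRNAs and 13 mRNAs in order along the mitochondrial genome, 1 point per library (FL blue, HET orange, the libraries labelled FL 5 and HET 1 outlined) with group means as bars (n = 5 each). mt-Atp6 and mt-Rnr2 have the highest means and mt-Nd4l is lowest in every library.

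The levels did not follow the order of the genes in a steady way. Along the heavy-strand transcript, whose precursor holds both rRNAs and 12 of the 13 mRNAs, neighbours could differ by more than 10-fold: mt-Nd1 held 8260 FPKM and the next mRNA, mt-Nd2, 365, and then mt-Co1 10476. Across the 12 heavy-strand mRNAs, Spearman's rho between level and position ran from -0.32 to -0.09 over the 10 libraries. These genes share a precursor and a library, and rho is given as a description. mt-Nd6, a complex I subunit and the only mRNA of the other strand, held 332 FPKM. Its ratio to the median heavy-strand mRNA was 0.0683 ± 0.0152 in FL and 0.0706 ± 0.0127 in HET (n = 5 each, ± SD), with overlapping groups. That median leaves out the signal at nuclear copies of heavy-strand genes, described below. With the copies added the median is higher, so the ratio is lower. The labels name no strand marking, so RNA antisense to mt-Nd6 may be part of its value.

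Some neighbouring genes overlap and can share fragments. mt-Atp8, which encodes a second ATP synthase subunit, and mt-Atp6 share 43 bases (chrM:7927-7969). The stretch around the overlap is shown with those bases in capitals (GRCm38 chrM:7907-7989, plus strand), because fragments there could be credited to either gene:
mt-Atp8/mt-Atp6: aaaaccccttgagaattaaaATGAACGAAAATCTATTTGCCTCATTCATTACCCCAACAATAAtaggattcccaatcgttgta
The ratio of mt-Atp8 to mt-Atp6 was 0.643 ± 0.0661 in FL and 0.706 ± 0.0174 in HET (n = 5 each, ± SD), and the groups overlapped. It leaves out the nuclear copy of mt-Atp6, described below, which was 0.653 ± 0.171 times mt-Atp6 in FL and 0.867 ± 0.142 in HET. With that copy added, mt-Atp6 held means of 29100 FPKM in FL and 25470 in HET, beside 11380 and 9734 for mt-Atp8. The ratio is then lower, and by more in HET, so a higher ratio in HET is not shown. mt-Nd4l and mt-Nd4 share 7 bases, and mt-Nd5 and mt-Nd6 share 14 on opposite strands.

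Nuclear copies of the mitochondrial genome held signal of the same order as, or above, that of 6 mitochondrial mRNAs. Searching the 37 member sequences against all annotated mouse transcripts found 15 nuclear genes with at least 90% identity over at least 200 bases. The copies with at least 99% identity numbered 7, and they lie side by side on chromosome 1 within 4663 bases (GRCm38 chr1:24611535-24616197). They match 7 of the 8 mRNAs from mt-Co1 to mt-Nd4 along the mitochondrial genome, mt-Atp8 being the one for which none was found. mt-Atp8 is 204 bases long, so a copy of only part of it would fall under the 200 bases asked for. The 43 bases that it shares with mt-Atp6 are identical in the copy of mt-Atp6. The copies of mt-Co2 and mt-Atp6 are 233 bases apart, as are the stretches they match on either side of most of mt-Atp8, and whether the bases between resemble mt-Atp8 was not tested, since only annotated transcripts were searched. The copy of mt-Co1 spans 483 of its 1545 bases and that of mt-Nd4 876 of 1378, and the others span nearly the whole gene. The copies of mt-Co2, mt-Atp6, mt-Co3, mt-Nd4l and mt-Nd4 are identical to their members over the whole aligned stretch, and those of mt-Co1 and mt-Nd3 differ at 1 base. The other 8 nuclear copies had mean levels of at most 1.27 FPKM.

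The windows around both differing bases are shown, with the differing base in capitals. Positions are counted from 1 at the first base of the mitochondrial gene, whose base comes first in the substitution. In the copy of mt-Co1 the substitution is A1066T (mitochondrial window chrM:6390-6413, plus strand, and nuclear window chr1:24616165-24616188, minus strand):
mt-Co1: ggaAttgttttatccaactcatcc
Gm29216: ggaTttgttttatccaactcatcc
In the copy of mt-Nd3 it is T3C (chrM:9459-9481, plus strand, and chr1:24613097-24613119, minus strand):
mt-Nd3: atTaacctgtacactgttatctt
Gm28438: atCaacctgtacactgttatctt

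The split between member and copy differed from gene to gene. For mt-Nd4l nearly all signal stood at the copy. mt-Nd4l held 44.5, 61.0, 157.9, 181.0 and 76.9 FPKM in FL 1 to 5 and 72.5, 174.9, 166.1, 171.0 and 86.1 in HET 1 to 5, whereas its copy Gm10222 (chr1:24612407-24612700) held a mean of 5305 ± 981 (SD, n = 5) FPKM in FL and 4903 ± 559 in HET. The copy was 25.3 to 109 times the member in each library. The mt-Nd4l gene is printed in full (GRCm38 chrM:9877-10173, plus strand), since its first 294 of 297 bases are the same in the copy. The 3 bases in capitals lie outside the stretch aligned to Gm10222. They are among the 7 bases that mt-Nd4l shares with mt-Nd4. The adjoining copy of mt-Nd4, Gm28439, is identical to mt-Nd4 from its first base. These 3 bases therefore do not tell the mitochondrial gene and the nuclear stretch apart:
mt-Nd4l: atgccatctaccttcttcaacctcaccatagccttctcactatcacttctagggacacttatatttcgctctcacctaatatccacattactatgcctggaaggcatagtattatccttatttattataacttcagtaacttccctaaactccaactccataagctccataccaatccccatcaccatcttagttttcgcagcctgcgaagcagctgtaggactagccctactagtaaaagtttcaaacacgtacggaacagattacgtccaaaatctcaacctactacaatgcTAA

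The opposite split was found for mt-Nd4, another complex I subunit gene, whose copy Gm28439 held 17.4 ± 6.13 FPKM in FL and 21.1 ± 5.72 in HET while mt-Nd4 held 2413 ± 408 and 2318 ± 303. The copy of mt-Co2 (Gm28661) was 2.27 to 3.09 times its member, that of mt-Co3 (Gm28437) 1.31 to 2.004 times and that of mt-Nd3 (Gm28438) 1.67 to 4.44 times. The copies of mt-Atp6 (Gm10925, 0.524 to 1.05 times) and of mt-Co1 (Gm29216, 0.797 to 1.098 times) were of similar size to their members. How the authors' counting assigned fragments that match both places is not stated in the sources at hand, and transcription of the nuclear copies and of the mitochondrial genes cannot be told apart over identical bases. The levels of these 7 members alone are therefore uncertain, and so is that of mt-Atp8 over the 43 bases it shares with mt-Atp6.

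**Figure D2:**
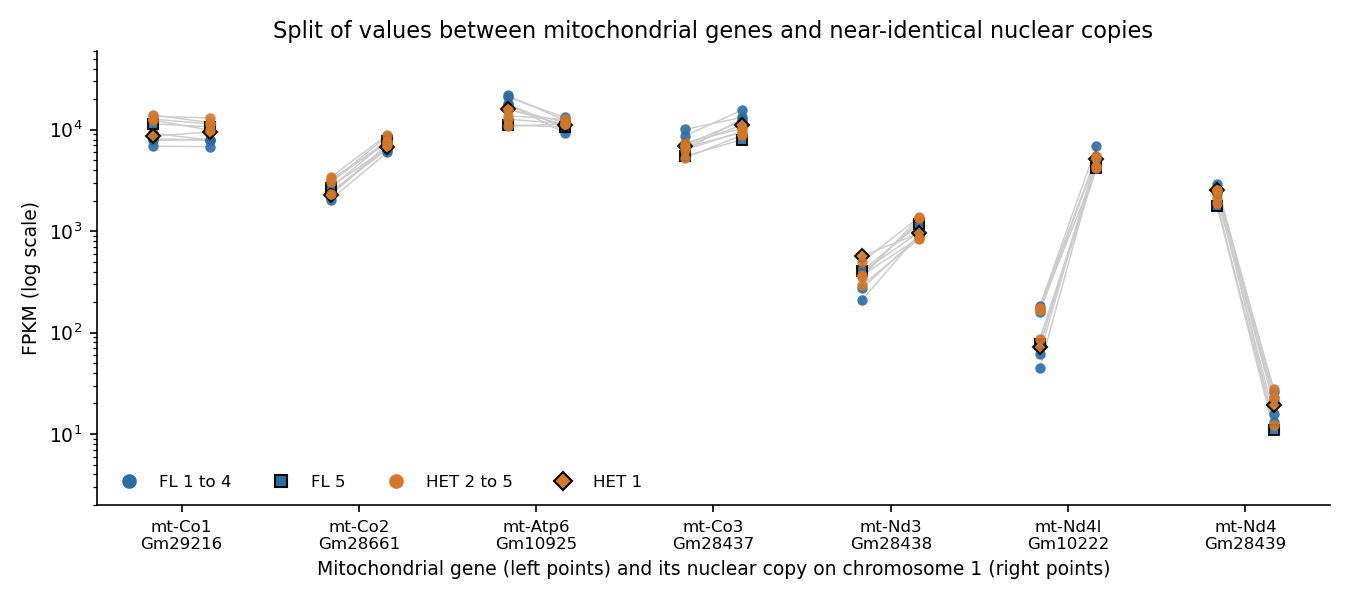
FPKM on a log axis of the 7 mitochondrial mRNAs that have a near-identical copy on chromosome 1 (left points) and of the copy (right points), with grey lines joining the values of 1 library. The copy of mt-Nd4l lies 25.3 to 109 times above its member, and that of mt-Nd4 lies below its member in every library.

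Adding each copy to its member, weighted by length, changed the order of the levels. mt-Atp6 stayed first, at 27285 FPKM over all 10 libraries. mt-Co3, which encodes a cytochrome c oxidase subunit, moved from seventh of the 15 genes to second at 18095 FPKM, and mt-Nd4l from last to ninth at 5172 FPKM. The fold between the highest and the lowest mRNA was then 82.3, and mt-Nd6 was lowest. The mRNAs held 7.58% ± 1.28 of the FPKM sum in FL and 6.48% ± 0.712 in HET (n = 5 each, ± SD). With the FPKM of the copies added here without the length weight, the shares were 12.4% ± 1.73 and 11.01% ± 0.994. The rRNAs held 1.45% ± 0.464 in FL and 1.44% ± 0.242 in HET, and in all 3 measures the groups overlapped. A share of the FPKM sum also depends on the other genes in it. The B cell marker sum was 47553 FPKM in HET 3 and 100907 in HET 5, 7933 to 14373 in the other HET libraries and at most 10136 in FL. Its part in these shares was not tested.

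The 2 rRNAs had log2 fold changes of opposite sign, neither past the threshold, and mt-Rnr1 had the most negative log2 fold change of all 15 tested members. mt-Rnr1, the RNA of the small mitochondrial ribosomal subunit, held 1151, 1263, 1644, 2627 and 1143 FPKM in FL 1 to 5 and 1155, 901, 718, 964 and 724 in HET 1 to 5. Every HET library was under the median of FL, and HET 1 was the only one above any FL library. In limma across all 13041 tested genes its log2 fold change was -0.76 (SE 0.23) and the adjusted p (Benjamini-Hochberg) was 0.472, which did not pass. mt-Rnr2, the RNA of the large subunit, held 7538, 7765, 12287, 15415 and 18555 FPKM in FL 1 to 5 and 10264, 16082, 12419, 17130 and 13169 in HET 1 to 5, with wide overlap (log2 fold change 0.23, SE 0.26, limma adjusted p = 0.657).

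Both rRNAs come from the same precursor, and their ratio within a library does not depend on how the library was scaled. The ratio of mt-Rnr2 to mt-Rnr1 was 6.55, 6.15, 7.47, 5.87 and 16.2 in FL 1 to 5 and 8.88, 17.9, 17.3, 17.8 and 18.2 in HET 1 to 5. The values formed a low set, FL 1 to 4 and the library labelled HET 1, and a high set, HET 2 to 5 and the library labelled FL 5, with nothing between 8.88 and 16.2. The group means were 8.46 ± 4.39 in FL and 16.005 ± 3.99 in HET (n = 5 each, ± SD), and the ratio was not tested.

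**Figure D3:**
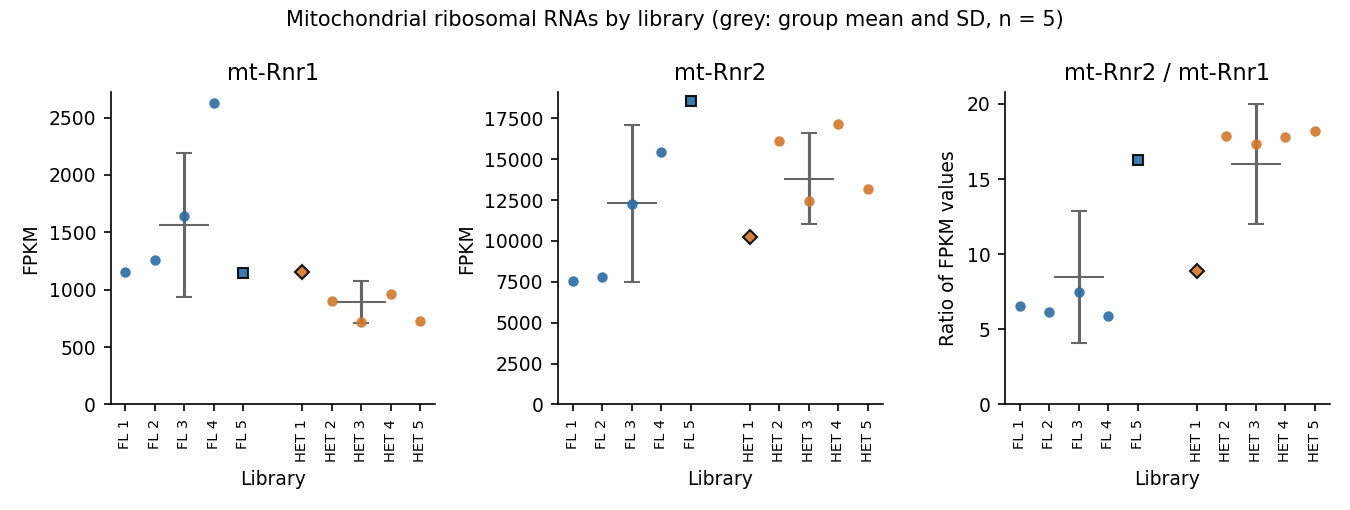
FPKM of mt-Rnr1 and mt-Rnr2 and their ratio in each library, all on linear axes from 0, with group mean and SD in grey (n = 5 each). The ratio is between 5.87 and 8.88 in FL 1 to 4 and the library labelled HET 1, and between 16.2 and 18.2 in HET 2 to 5 and the library labelled FL 5.

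Among complex IV mRNAs, and among all 15 members, mt-Co1 had the largest positive log2 fold change. mt-Co1, the catalytic subunit of cytochrome c oxidase, held 6872, 8103, 7861, 9208 and 11437 FPKM in FL 1 to 5 and 8639, 12719, 12412, 13981 and 13527 in HET 1 to 5. All 5 HET libraries lay above the FL median, and the overlap came from FL 4, FL 5 and HET 1. Its log2 fold change was 0.50 (SE 0.18), or 0.66 above the median of all tested genes, and the limma adjusted p of 0.472 did not pass. Its nuclear copy Gm29216 held 8247 ± 1438 and 11113 ± 1447 FPKM (log2 fold change 0.44, SE 0.15, limma adjusted p = 0.472), and with the copy added the fold change was 0.48. mt-Co2 held 2585 ± 366 FPKM in FL and 2849 ± 524 in HET, and mt-Co3 7549 ± 1840 and 6529 ± 812, neither past the threshold (limma adjusted p of 0.674 and 0.608).

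Both ATP synthase mRNAs had lower means in HET, in a fit where 77.3% of all tested genes had a log2 fold change below 0 (median -0.17). mt-Atp6 held 17865, 20913, 17947, 21741 and 11148 FPKM in FL 1 to 5 and 16091, 12683, 10829, 15675 and 13701 in HET 1 to 5. All 5 HET libraries were below the FL median, and the only FL library within their range was FL 5. The log2 fold change was -0.36 (SE 0.19, limma adjusted p = 0.476). With its copy Gm10925 added it was -0.18 (SE 0.15), nearer to 0 and close to the median of all tested genes. mt-Atp8, for which no annotated copy was found, held 11380 ± 2186 and 9734 ± 1553 FPKM (log2 fold change -0.22, SE 0.17, limma adjusted p = 0.563). Relative to the median of all tested genes, with no copies added, the log2 fold change was -0.19 for mt-Atp6 and -0.05 for mt-Atp8.

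The make-up of the mRNA signal showed the same libraries on each side. mt-Co1 was 10.3%, 9.98%, 11.2%, 11.04% and 20.3% of the summed mRNA FPKM in FL 1 to 5 and 12.96%, 19.4%, 21.6%, 18.6% and 20.7% in HET 1 to 5. mt-Atp6 was 26.8%, 25.8%, 25.6%, 26.1% and 19.8% in FL 1 to 5 and 24.1%, 19.3%, 18.8%, 20.8% and 20.998% in HET 1 to 5. For both genes the libraries labelled FL 5 and HET 1 lay nearer to the other group than to their own. These shares leave the nuclear copies out, and the group means of mt-Atp6 were 24.8% ± 2.82 in FL and 20.8% ± 2.08 in HET. With the copies added, an alternative chosen after seeing the data, they were 26.1% ± 1.42 and 24.4% ± 1.196, a smaller difference. Those of mt-Co1 were 12.6% ± 4.37 and 18.6% ± 3.38 without the copies, and 10.5% ± 3.26 and 15.1% ± 2.35 with them. The 7 complex I mRNAs together were 18.98% ± 0.763 in FL and 18.3% ± 1.58 in HET (n = 5 each, ± SD), and mt-Cytb, the complex III member, was 13.7% ± 1.29 and 13.4% ± 0.3996, so these shares differed by less than their spread.

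**Figure D4:**
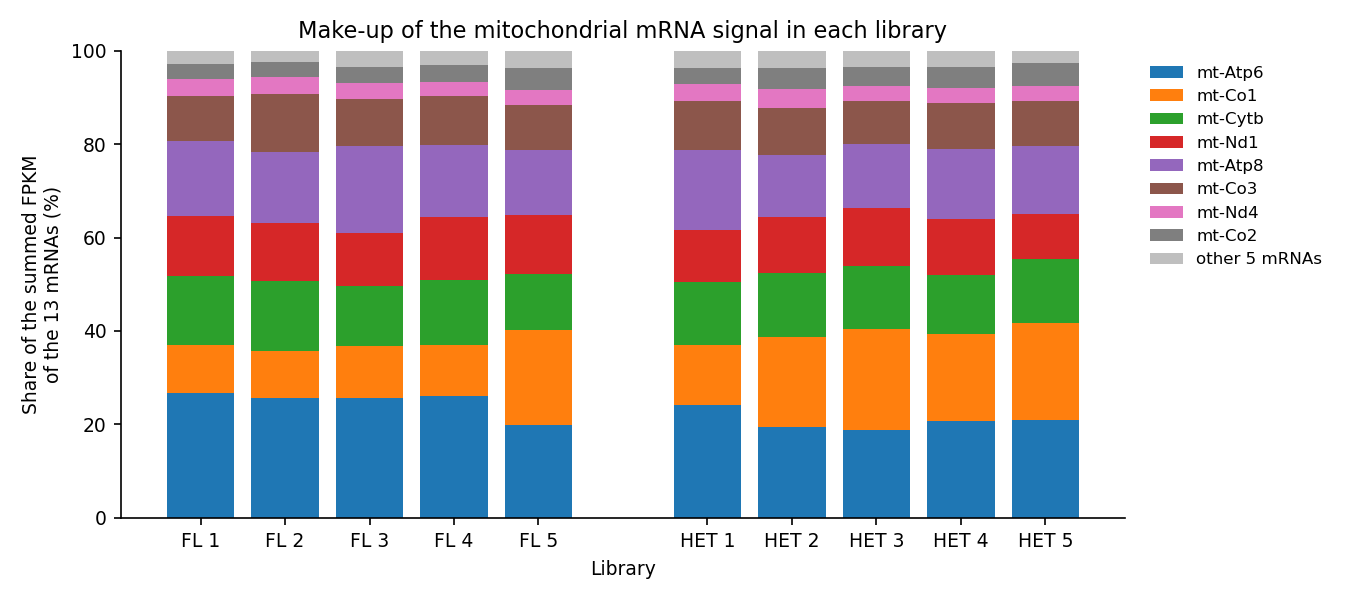
Share of the summed FPKM of the 13 mitochondrial mRNAs held by 8 of them and by the other 5 together, in each library, with nuclear copies left out. mt-Co1 holds 9.98% to 12.96% in FL 1 to 4 and the library labelled HET 1, and 18.6% to 21.6% in HET 2 to 5 and the library labelled FL 5.

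Among complex I and III mRNAs no difference passed the threshold. mt-Nd2, a proton-pumping subunit of complex I, held 370, 409, 433, 445 and 357 FPKM in FL 1 to 5 and 394, 347, 263, 345 and 283 in HET 1 to 5. Every HET library was under the median of FL, with HET 1 inside the FL range (log2 fold change -0.31, SE 0.13, limma adjusted p = 0.472). mt-Nd1, a subunit of the quinone-binding region, held 8996 ± 1707 and 7525 ± 960 FPKM, mt-Nd5, another proton-pumping subunit, 988 ± 142 and 1009 ± 179, mt-Nd4 2413 ± 408 and 2318 ± 303, mt-Nd6 333 ± 65.3 and 331 ± 60.7, and mt-Cytb, the cytochrome b of complex III, 9840 ± 2148 and 8844 ± 626. mt-Nd3, a small complex I subunit gene, held 332 ± 85.7 and 418 ± 113, a log2 fold change of 0.33 which was 0.10 with its copy added. For mt-Nd4l the log2 fold change of 0.47 (SE 0.42) turned to -0.09 (SE 0.15) when its copy was added, so no direction can be given for it. The limma adjusted p of these genes ran from 0.472 to 0.986.

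Across the 15 tested members, none passed at an adjusted p of 0.05, as none did of all 13041 tested genes (0 called, 0%). At an unadjusted limma p under 0.05 there were 3 members, mt-Rnr1 and mt-Nd2 lower and mt-Co1 higher, against 1355 of all tested genes (10.4%). Of the 13 mRNAs 5 had a log2 fold change above 0 and 8 below, with a median of -0.05 beside -0.17 for all tested genes, of which 22.7% were above 0 and 77.3% below. The groups overlapped for all 15 members, and for all but 0.222% of genes upward and 0.284% downward. Median-ratio scaling moved the median of all genes to 0.02 and that of the mRNAs to 0.17, with 10 of 13 mRNAs then above 0 beside 53.5% of all genes. The directions of mt-Nd4, mt-Nd6, mt-Cytb, mt-Atp8 and mt-Co3 turned from below to above 0 under it, while mt-Rnr1 (-0.54) and mt-Co1 (0.71) kept theirs.

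Without the libraries labelled FL 5 and HET 1, 5 of the 15 members passed, beside 45.7% of all tested genes. mt-Co1 was higher (log2 fold change 0.72, SE 0.14, limma adjusted p = 0.00229), beside 3.44% of all genes called higher. The 4 lower ones, by log2 fold change, were mt-Rnr1 (-0.95, adjusted p = 0.0105), mt-Atp6 (-0.58, adjusted p = 0.0136), mt-Nd2 (-0.43, adjusted p = 0.0186) and mt-Atp8 (-0.41, adjusted p = 0.0485), beside 42.2% called lower. Quality weights were lowest for the same libraries, 0.236 for FL 5 and 0.149 for HET 1 (others 0.785 to 3.38). With these weights in place of leaving libraries out, 5 members passed, beside 52.7% of all genes. Without the library labelled FL 5 alone, 0 members passed in limma, beside 3.14%. With the nuclear copies added and all libraries kept, 0 passed, as did 0% of all genes. With the copies added and without both libraries 5 passed, beside 45.7% of all genes (3.42% higher, 42.2% lower): mt-Atp6 no longer passed (limma adjusted p = 0.123) and mt-Co3 did (-0.43, adjusted p = 0.0392). In these 8 libraries, with no copies added, the groups did not overlap for mt-Co1, as for 2.99% of all genes upward, nor for mt-Rnr1, mt-Atp6 and mt-Nd2, as for 38.9% downward. A share of 5 in 15 is not above that of all genes, so these calls are not shown to be particular to mitochondrial transcripts.

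**Figure D5:**
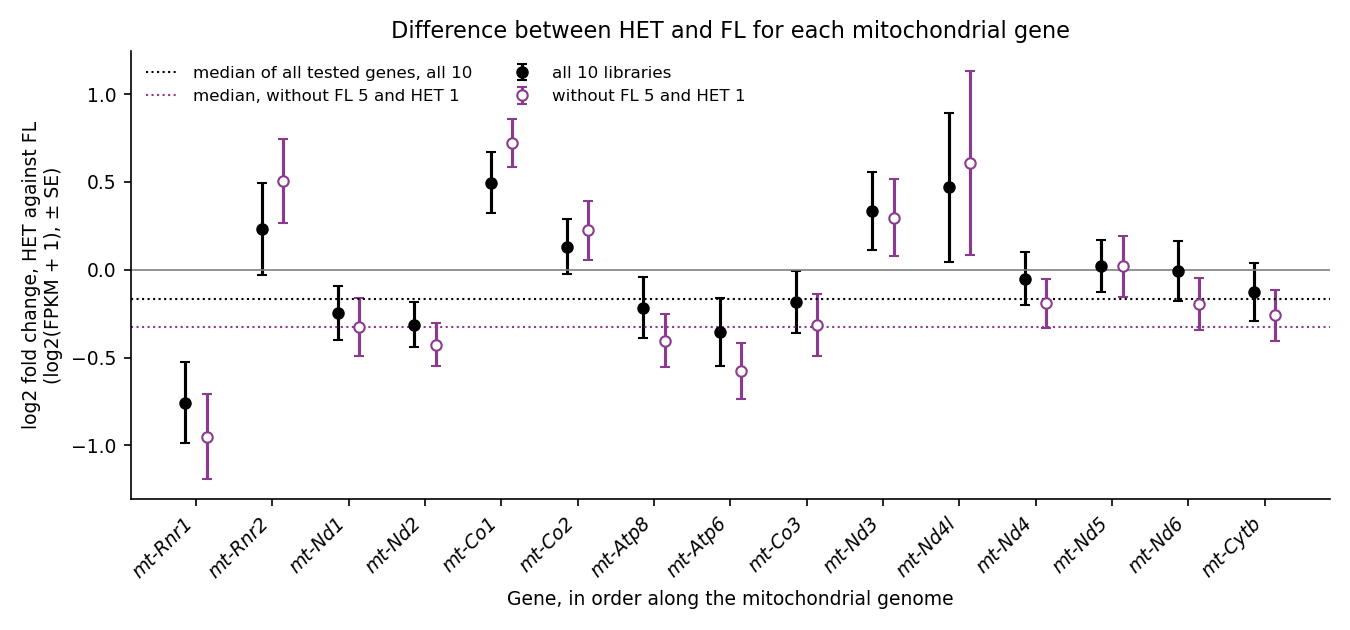
Log2 fold change of HET against FL on the log2(FPKM + 1) scale with its SE, for the 2 rRNAs and 13 mRNAs in order along the genome, from all 10 libraries (filled) and without the libraries labelled FL 5 and HET 1 (open), with the median of all tested genes as dotted lines. mt-Rnr1 lies lowest at -0.76 and mt-Co1 highest at 0.50 with all 10 libraries.

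Nuclear genes that transcribe, process and maintain the mitochondrial genome gave no call either. Of 55 genes listed, 53 were tested, with 12 above and 41 below 0 and a median log2 fold change of -0.16, close to that of all genes (-0.17). None passed (limma), and at an unadjusted p under 0.05 there were 1 higher and 3 lower, beside 10.4% of all genes. The RNA polymerase gene Polrmt held 27.6 ± 4.37 FPKM in FL and 26.0 ± 3.42 in HET, and the packaging and promoter factor Tfam 15.3 ± 2.11 and 15.99 ± 2.14. Lrpprc and Slirp, whose products bind and stabilise mitochondrial mRNAs, did not pass either (limma adjusted p of 0.664 and 0.532), with Lrpprc at 18.6 ± 1.15 against 19.9 ± 0.956 FPKM and Slirp at 62.5 ± 9.96 against 53.2 ± 13.1 (FL against HET). Levels of the promoter factor Tfb2m were 17.0 ± 2.82 and 14.4 ± 4.66, and of the elongation factor Tefm 14.4 ± 3.53 and 13.6 ± 3.65.

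The 4 further listed genes with the smallest p were Grsf1, Fastkd2, Ssbp1 and Twnk. Grsf1, which encodes a protein of mitochondrial RNA granules, held 14.7, 13.2, 13.5, 12.7 and 7.44 FPKM in FL 1 to 5 and 7.67, 9.84, 8.86, 7.72 and 7.29 in HET 1 to 5, so all FL libraries but FL 5 lay above all HET libraries. Fastkd2, which is needed for assembly of the large mitochondrial ribosomal subunit, held 26.4 ± 5.63 and 18.7 ± 2.90, and the mitochondrial DNA helicase gene Twnk 18.3 ± 4.88 and 12.7 ± 3.43. Ssbp1, whose product binds single-stranded mitochondrial DNA, held 54.7, 50.4, 52.5, 53.3 and 57.3 in FL 1 to 5 and 66.0, 62.8, 62.1, 63.6 and 59.2 in HET 1 to 5. The groups did not overlap for Ssbp1, as for 0.222% of all tested genes upward, and the library labelled FL 5 was the highest of FL. All 4 had a limma adjusted p of 0.472. Without FL 5, Grsf1 (log2 fold change -0.65, adjusted p = 0.0319) and Fastkd2 (-0.61, adjusted p = 0.0457) passed downward, beside 2.91% of all genes. Without both FL 5 and HET 1, 29 of the 53 passed, 1 higher and 28 lower, beside 45.7% of all genes.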

How the data were processed

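Per the labels' protocols, total RNA came from miRNeasy columns, cDNA was amplified as in Geo-seq, and a transposase (TruePrep V2) kit was used for the libraries, with no strand marking or molecular identifier named. The deposited values are FPKM per Ensembl gene. The submitters' processing notes list mm10, HTSeq, DESeq2, Cufflinks 2.1.1 and Bowtie 0.12.9 without saying what each did. All 52096 identifiers matched GENCODE M21 (GRCm38, also called mm10), which gave symbols, coordinates and transcript sequences.

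Genes at 1 FPKM or more in at least 5 of 10 libraries (13041) were compared as log2(FPKM + 1) in a limma fit of genotype alone (limma 3.58.1, R 4.3.3, trended and robust prior). P-values were adjusted by Benjamini-Hochberg over all tested genes, with 0.05 as threshold. Fold changes are on this scale and errors of means are SDs. The fit was tested on simulated data. Members were searched against all transcripts with BLAST+ 2.17.0, and copies were added to members weighted by length. Only in the share of the FPKM sum was their FPKM added unweighted.

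Alternatives covered pseudocount, filter, prior, scaling, a replicate block, quality weights, libraries left out and, chosen after seeing the data, added copies. Members, markers and lists were chosen with earlier results of these data known. Named were all mRNAs and rRNAs, Nup214, copies at a mean of 10 FPKM or more, and of the listed nuclear genes 6 fixed ones and the 4 others with the smallest p. The rule also names the highest tRNAs, but all were at 0. No unmapped column was present. No pair of libraries shared more than 0.767% of tested values exactly.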

Additional observations from a re-analysis of the deposited data

Results flagged for a closer look

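In groups of 5 libraries, 10 values lay far from the other 4 by Dixon's test at 95%, among 106 group and measure pairs examined, where chance gives about 1 in 20. Of these, 9 belonged to the libraries labelled FL 5 and HET 1. The ratio of mt-Rnr2 to mt-Rnr1 was 16.2 in FL 5, with the other FL libraries at 5.87 to 7.47, and 8.88 in HET 1, with the other HET libraries at 17.3 to 18.2. In FL 5 the share of the mRNA sum, nuclear copies left out, was 19.8% for mt-Atp6 (others 25.6% to 26.8%). With the copies added it was 23.8% (others 26.1% to 27.7%), to which Dixon's test was not applied. Without the copies, FL 5 held 20.3% for mt-Co1 (others 9.98% to 11.2%) and 34.9% for the complex IV mRNAs together (others 22.9% to 25.7%). In HET 1 the complex IV share was 26.8% (others 32.9% to 35.4%). The complex IV share includes mt-Co1, and shares of the same sum depend on each other, so these flags are not separate signs. Among the nuclear genes, FL 5 held 7.44 FPKM of Grsf1 (others 12.7 to 14.7), and HET 1 held 22.5 FPKM of Tfb2m (others 11.3 to 13.99) and 20.1 of Tefm (others 11.5 to 12.6). The remaining value was the complex I share of 15.5% in HET 5 (others 18.6% to 19.4%).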

How the results depend on the processing

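The number of genes past the threshold, 0 with all libraries, was 1 under median-ratio scaling and under quantile normalization, 6869 with quality weights, 5954 without the libraries labelled FL 5 and HET 1 and 5952 when nuclear copies were also added (chosen after seeing the data). Leaving out 1 library at a time gave 0 to 409, the highest without FL 5. Members past the threshold numbered 5 under each of those last 3 settings and 0 with any single library left out. All 3 settings drop the libraries labelled FL 5 and HET 1 or give them the lowest weights. Of the listed nuclear genes, 29 passed under the same 3 settings and 0 to 2 with 1 library left out. The median log2 fold change of the 13 mRNAs was 0.167 under median-ratio scaling and -0.249 under quantile normalization, and -0.154 to 0.0217 with 1 library left out. The 22 tRNAs had no tested value under the main setting. Directions turned under median-ratio scaling for mt-Nd4 (0.167), mt-Nd6 (0.209), mt-Cytb (0.0900), mt-Atp8 (0.00132), mt-Co3 (0.0320), Polrmt (0.128), Tefm (0.132) and Gm10222 (0.114). Under quantile normalization they turned for mt-Co2 (-0.0833), mt-Nd5 (-0.0918), Polrmt (0.121), Tefm (0.144), Gm28661 (-0.0921), Gm10925 (-0.0768) and Gm28438 (-0.126). With scaling to the sum of other genes they turned for mt-Nd5 (-0.108), Tfam (-0.0577), Lrpprc (-0.0326), Gm28661 (-0.0262), Gm10925 (-0.0585) and Gm28438 (-0.116). With copies added mt-Nd4l was at -0.0904, and at -0.189 without FL 5 and HET 1 as well. With 1 library, or both FL 5 and HET 1, left out the log2 fold change changed sign for mt-Nd4 (-0.190 to 0.0217), mt-Nd5 (-0.0515 to 0.114), mt-Nd6 (-0.196 to 0.0927), Tefm (-0.355 to 0.0235), Tfam (-0.0104 to 0.139) and Gm28438 (-0.0823 to 0.0960). Apart from these scaling and copy-adding settings, the cause of a change was not tested. Same-numbered libraries did not all deviate together (correlations from -0.172 to 0.230), so pairing by number is not established, although 3 of 5 were above 0.1. With a replicate block 0 genes passed in limma, with 2434 at an unadjusted p under 0.05. By the estimated 1-fragment step, each of the 15 members with a value rested on about 263 fragments or more per library, while the tRNAs cannot be assessed.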
